A study of Homo sapiens with 12 samples.

Results

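The 7 genes described here encode growth factors of the epidermal growth factor (EGF) family: EGF, AREG (amphiregulin), EREG (epiregulin), HBEGF (heparin-binding EGF-like growth factor), TGFA (transforming growth factor alpha), BTC (betacellulin) and NRG1 (neuregulin 1). They were found in the table of counts by an exact match of the gene symbol, which gave 7 rows, 1 for each gene, out of 58307 rows that name a gene. The family was selected on measured values of these libraries: the counts of EGF and AREG with and without rapamycin, which had been seen to differ in both cell lines. Those values are given below as a description, without a test. The comparison between treatments, and its difference between the cell lines, was tested for the other 5 members, and the comparisons between cell lines were tested for all members. Tests were made with edgeR's quasi-likelihood method on the counts of all genes, and p-values were adjusted over all genes tested.

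RNA was sequenced from A375 and SK-MEL-28, a pair of established cell lines from human melanomas. Each was treated with Etoposide, which traps topoisomerase II on DNA and leaves breaks, or Etoposide + Rapamycin, where rapamycin inhibits the kinase mTOR and induces autophagy. All 4 groups therefore carried etoposide, and a group without it was not analysed here. Each group had 3 libraries, 12 in all, made from polyA-enriched RNA of cells grown in serum, with 28190672 to 32499659 counts per library. Each model is 1 cell line, the drug doses and times used for sequencing are not given in the sources used here, and the libraries are labelled only as numbered samples, although the methods speak of independent biological replicates. The p-values therefore measure the spread between these libraries. The question posed by the study was how an inducer of autophagy changes the response of these cells to etoposide.

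Ligands of this family are made as proteins anchored in the cell membrane and are cut free by proteases, chiefly of the ADAM family, after which they act on the cell that made them or on its neighbours. EGF, TGFA, AREG and EPGN bind the receptor EGFR, HBEGF, BTC and EREG bind EGFR and ERBB4, and the neuregulins bind ERBB3 and ERBB4. ERBB2 has no ligand of its own and joins the other receptors in pairs. Bound receptors signal through the adaptors GRB2 and SHC1 to RAS and the kinases ERK, and through PI3K to AKT and mTOR. Melanomas often carry a mutant BRAF that activates ERK below the receptors, and signals from EGFR and ERBB3 are known to keep such cells growing when BRAF is inhibited.

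Of 8 melanocytic markers, 7 had a mean of at least 10 counts in each group other than A375 with etoposide and rapamycin, where 6 did. The transcription factor SOX10 had 5134 to 16540 counts in every library and S100B 1683 to 3504, and they held most counts of the list. MITF had 361 to 946 counts, PMEL 46 to 92, TYRP1 11 to 55 and MLANA 11 to 42. TYR, the enzyme that starts melanin synthesis, had 0 to 6 counts and was at 0 in 8 of the 12 libraries. The summed level of the 8 markers, in CPM (counts relative to library size, corrected for composition), was 400 to 655 with rapamycin and 481 to 598 without it in A375, and 294 to 526 and 425 to 550 in SK-MEL-28. The 6 markers of keratinocytes, leukocytes, endothelial cells and fibroblasts summed to 15.7 to 19.5 CPM with rapamycin and 20.6 to 24.3 without it in A375, and to 7.88 to 10.3 and 12.9 to 13.3 in SK-MEL-28. Of these markers KRT5 was at 0 in 5 libraries and PTPRC in 1. KRT14 had 138 to 305 counts, PECAM1 39 to 186, DCN 26 to 195 and COL1A1 14 to 72, so none of these was at 0 in any library. Of the 6 markers, 5 had a mean of at least 10 counts without rapamycin and 4 with it, in both lines. With rapamycin 6 of the 7 melanocytic markers tested had a log2 fold change below 0 in A375, with a median of -0.48. Of these 3 passed on the adjusted p (edgeR) and 1 also exceeded 1.5-fold. That gene, singled out after its values were seen, was DCT, an enzyme of melanin synthesis, with -1.70 (edgeR adjusted p = 0.0106). DCT had only 6 to 67 counts over the 12 libraries. In SK-MEL-28 5 of 7 were below 0, with a median of -0.23, 1 passed on the adjusted p and 0 were called. The markers of other cell types tested were below 0 in both lines, 4 in A375 and 5 in SK-MEL-28, with 1 called lower in each. Beside these counts, 5.89% of all genes tested were called in A375 and 4.99% in SK-MEL-28. On the adjusted p alone 28.1% and 19.0% of all genes passed. Most tested markers of both lists thus had log2 fold changes below 0 in both lines. A shift of either list as a whole was not tested, and neither was the part of the markers in the results below. In bulk RNA, fewer cells that make a transcript and less transcript per cell cannot be told apart.

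Of the 11 genes that encode ligands of the family, the 4 genes EPGN, EREG, AREG and BTC lie next to each other on chromosome 4 (GRCh38, GENCODE release 44). EREG spans chr4:74365145-74388749 and AREG chr4:74445136-74455005, both on the plus strand, and BTC spans chr4:74744759-74794523 on the minus strand. EPGN ends 48355 bases before EREG, EREG 56386 bases before AREG, and AREG 289753 bases before BTC, with 0 protein-coding genes in each of these gaps. EGF (chr4:109912883-110013766, plus strand) is on the same chromosome but 35118359 bases further along, with 164 protein-coding genes in between. TGFA is at chr2:70447284-70554193 on the minus strand and HBEGF at chr5:140332843-140346603 on the minus strand.

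The promoters of EGF, AREG and EREG are shown because EGF and AREG were the ligands that moved in opposite directions with rapamycin, and EREG is the neighbour of AREG. Each sequence is the 250 bases before the RefSeq start of the gene on its own strand (plus for all 3, GRCh38.p14), at chr4:109912633-109912882 for EGF, chr4:74444886-74445135 for AREG and chr4:74364895-74365144 for EREG. Capitals mark matches to the motifs searched, which were the cyclic AMP response element (CRE, TGACGTCA), the AP-1 site (TGANTCA, both strands), the TATA box (TATAAA, gene strand only) and the E-box (CACGTG).
EGF: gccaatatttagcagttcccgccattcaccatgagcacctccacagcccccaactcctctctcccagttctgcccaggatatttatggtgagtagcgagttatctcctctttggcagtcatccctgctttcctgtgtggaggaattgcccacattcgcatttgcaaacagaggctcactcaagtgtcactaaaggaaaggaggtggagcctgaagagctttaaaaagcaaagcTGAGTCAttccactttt
AREG: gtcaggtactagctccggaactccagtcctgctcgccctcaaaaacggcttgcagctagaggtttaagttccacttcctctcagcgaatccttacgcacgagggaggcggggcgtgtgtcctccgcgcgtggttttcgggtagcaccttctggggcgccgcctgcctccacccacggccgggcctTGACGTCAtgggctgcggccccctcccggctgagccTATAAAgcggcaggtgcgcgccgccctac
EREG: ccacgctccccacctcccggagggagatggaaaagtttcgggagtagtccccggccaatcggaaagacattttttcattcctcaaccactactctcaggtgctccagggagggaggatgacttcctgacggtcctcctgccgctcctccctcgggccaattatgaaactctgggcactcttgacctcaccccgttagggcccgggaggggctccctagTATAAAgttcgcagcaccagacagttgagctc
The AREG window holds a CRE 65 to 58 bases before the start and a TATA box 29 to 24 bases before it. The EGF window holds an AP-1 match 17 to 11 bases before the start, and the EREG window a TATA box 32 to 27 bases before it. A CRE was present in 1.65% of 35116 promoter windows of the same length, an AP-1 match in 6.57%, a TATA box in 6.80% and an E-box in 6.34%. RefSeq windows were matched for 10 of the 11 ligands (13 windows, NRG1 not matched). In these letters the CRE was found in the window of AREG alone and the AP-1 match in that of EGF alone, and TATA boxes also preceded EPGN and NRG4. These are matches of letters, and binding was not measured.

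TGFA was the most abundant ligand mRNA of the family in every group. To compare genes, CPM was divided by the length of the main transcript in kilobases. On this scale the TGFA level was 219 ± 4.62 (SD, n = 3) in A375 with etoposide and 151 ± 5.47 with rapamycin added, and 262 ± 5.74 and 251 ± 11.0 in SK-MEL-28. AREG was second in A375, at 30.3 ± 0.265 CPM per kilobase with etoposide and 69.2 ± 1.81 with rapamycin, and HBEGF came next, at 10.6 ± 0.900 and 12.6 ± 0.275. In SK-MEL-28 with etoposide the order of these genes was the reverse, with HBEGF at 11.4 ± 1.03 and AREG at 6.26 ± 0.360. In SK-MEL-28 with rapamycin AREG (10.8 ± 2.08) and HBEGF (10.3 ± 0.726) overlapped between libraries, and their order changed when the summed length of all exons was used instead. In the other groups the 3 leading genes did not overlap each other.

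The remaining members were far lower on the same scale of CPM per kilobase. BTC had 1.68 ± 0.101 and 1.76 ± 0.302 in A375 without and with rapamycin, and 0.540 ± 0.110 and 0.763 ± 0.0900 in SK-MEL-28. EGF itself had 0.566 ± 0.132 and 0.318 ± 0.0539 in A375, while SK-MEL-28 had 1.36 ± 0.00759 and 0.616 ± 0.0617. NRG1 lay between 0.313 and 0.864 in the 4 group means, and EREG between 0.0227 and 0.103. BTC and EGF therefore held different places in the 2 lines under etoposide, with BTC above EGF in A375 and below it in SK-MEL-28, without overlap in either. In SK-MEL-28 with rapamycin BTC and EGF overlapped.

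**Figure D1:**
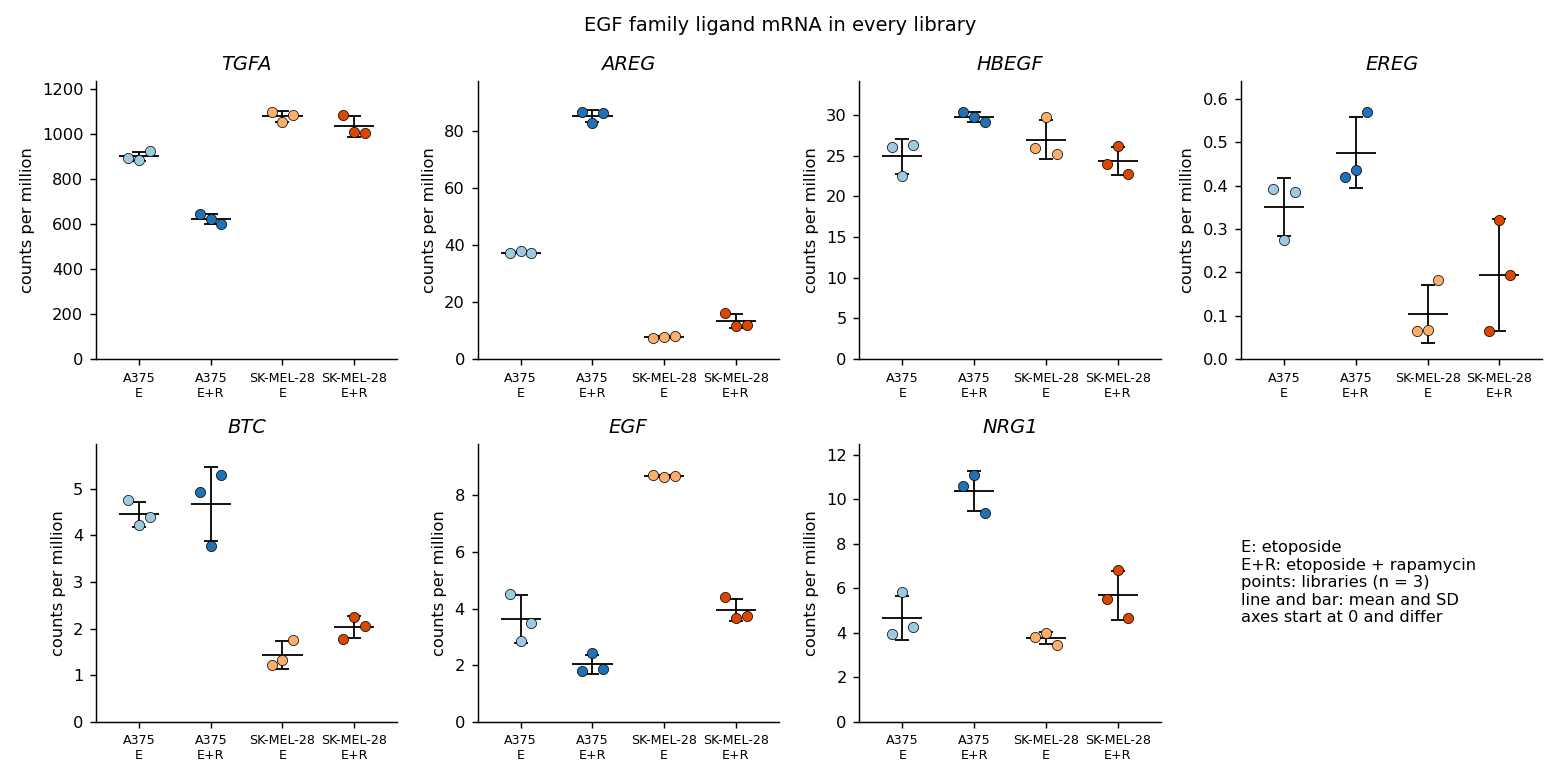
Level of the 7 ligand mRNAs in CPM (vertical axes, linear, starting at 0 and different for each gene) in the 4 groups; each point is a library, and the line and bar are the mean and SD of 3 libraries. AREG and NRG1 stand higher and EGF lower with rapamycin in both cell lines, while TGFA stands lower with rapamycin in A375 and overlaps in SK-MEL-28.

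AREG, an EGFR ligand made by epithelial and immune cells in repair, was one of the members on which the family was chosen. In A375 it had 37.1, 37.8 and 37.3 CPM in the 3 etoposide libraries and 86.8, 82.8 and 86.5 CPM with rapamycin. All 3 libraries with rapamycin were more than 2 times any library without it, and the log2 fold change of etoposide + rapamycin over etoposide was 1.20, or 2.29-fold. In SK-MEL-28 AREG had 7.26, 7.77 and 8.14 CPM with etoposide and 16.3, 11.6 and 12.0 CPM with rapamycin. The groups did not overlap here either, replicate 1 with rapamycin was the highest, and the log2 fold change was 0.78, or 1.72-fold.

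EGF, the founding member of the family, was the other member known from the start and was lower with rapamycin. In A375 it had 4.52, 2.85 and 3.48 CPM with etoposide and 1.79, 2.42 and 1.88 CPM with rapamycin, which corresponds to 83 to 138 counts and 51 to 72 counts. The groups did not overlap, but etoposide replicate 1 was the highest, and the log2 fold change of -0.83 was -0.63 without that library. In SK-MEL-28 EGF had 8.73, 8.63 and 8.69 CPM with etoposide and 4.39, 3.68 and 3.74 CPM with rapamycin, so that the libraries with rapamycin lay within the range of the A375 libraries without it. For SK-MEL-28 the log2 fold change was -1.14.

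NRG1, the ligand of ERBB3 and ERBB4 that acts on Schwann cells and melanocytes, rose with rapamycin in A375. Its gene lies at chr8:31639222-32855666 on the plus strand. It had 3.97, 5.81 and 4.25 CPM with etoposide and 10.6, 11.1 and 9.36 CPM with rapamycin in A375. The groups did not overlap, and rapamycin moved NRG1 by 1.15 on the log2 scale (standard error 0.15, edgeR adjusted p = 0.000181), or 2.22-fold. In SK-MEL-28 NRG1 had 3.83, 3.97 and 3.46 CPM with etoposide and 5.52, 6.82 and 4.68 CPM with rapamycin. These groups did not overlap, and the log2 fold change was 0.59 (standard error 0.17, edgeR adjusted p = 0.0260), or 1.51-fold, at the edge of the 1.5-fold threshold. The call in SK-MEL-28 was lost in 8 of 15 alternatives, over which the log2 fold change ran from 0.44 to 0.72 and the adjusted p from 0.0159 to 0.109. Leaving out SK-MEL-28 etoposide + rapamycin replicate 2, the highest library, gave the lowest value, 0.44 (edgeR adjusted p = 0.109). The call was also lost without etoposide + rapamycin replicate 1 (log2 fold change 0.62) and without etoposide replicate 1 (0.61), replicate 2 (0.63) or replicate 3 (0.54). An exon of NRG1 overlaps an exon of ENSG00000286131 on the same strand, so reads there could belong to either gene.

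TGFA, a ligand made by many tumours that sends EGFR back to the cell surface, was lower with rapamycin in A375. It had 894, 887 and 923 CPM with etoposide and 645, 624 and 600 CPM with rapamycin, on 17869 to 27271 counts per library. The groups did not overlap, and the log2 fold change was -0.53 (standard error 0.042, edgeR adjusted p = 3.35e-06), a 1.44-fold difference that stays under the 1.5-fold threshold for a call. In SK-MEL-28 TGFA had 1098, 1052 and 1085 CPM with etoposide and 1086, 1010 and 1006 CPM with rapamycin. These groups overlapped (log2 fold change -0.06, standard error 0.043, edgeR adjusted p = 0.349).

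HBEGF, which is also the receptor of diphtheria toxin, moved little. In A375 it had 26.0, 22.4 and 26.2 CPM with etoposide and 30.4, 29.8 and 29.1 CPM with rapamycin, without overlap. The log2 fold change was 0.26 (standard error 0.081, edgeR adjusted p = 0.0296), under the 1.5-fold threshold, and over 15 alternatives the adjusted p ran from 0.0149 to 0.108, the highest without etoposide replicate 2. In SK-MEL-28 HBEGF had 25.9, 29.7 and 25.2 CPM with etoposide and 24.0, 26.2 and 22.8 CPM with rapamycin, which overlapped (log2 fold change -0.15, standard error 0.089, edgeR adjusted p = 0.265).

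BTC, a ligand first found in a tumour of pancreatic beta cells, had 4.75, 4.23 and 4.39 CPM with etoposide and 4.94, 3.77 and 5.30 CPM with rapamycin in A375. The groups overlapped (log2 fold change 0.07, standard error 0.17, edgeR adjusted p = 0.796). In SK-MEL-28 BTC had 1.21, 1.32 and 1.76 CPM with etoposide and 1.78, 2.25 and 2.05 CPM with rapamycin. The 3 libraries with rapamycin were the higher ones, by a small margin, and the log2 fold change of 0.49 (standard error 0.25) did not pass the test (edgeR adjusted p = 0.193). EREG was near the limit of detection, with 12, 8 and 11 counts with etoposide and 12, 13 and 17 with rapamycin in A375, and with 2, 2 and 6 counts and 2, 9 and 6 counts in SK-MEL-28. In A375 its log2 fold change was 0.44 (standard error 0.43, edgeR adjusted p = 0.502), and in SK-MEL-28 it did not pass the filter on low counts and was not tested. No change of EREG was detected in A375.

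**Figure D2:**
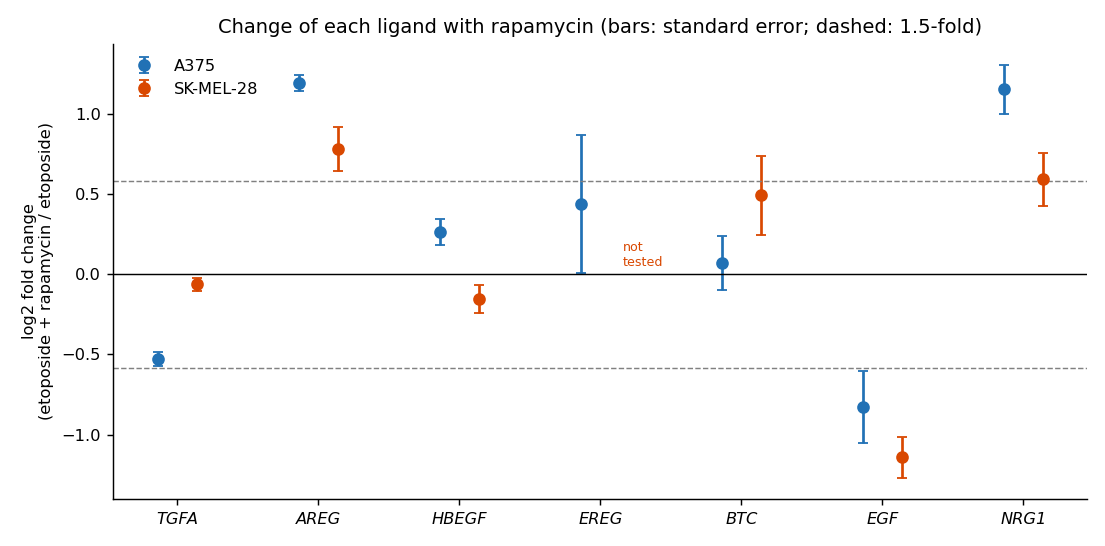
Log2 fold change of etoposide + rapamycin over etoposide (vertical axis) for the 7 ligands in A375 and SK-MEL-28; bars are standard errors from edgeR and dashed lines mark 1.5-fold. AREG and NRG1 lie above the upper line and EGF below the lower line in both cell lines, NRG1 in SK-MEL-28 at 0.59 just above it, and TGFA in A375 at -0.53 lies just inside the lower line. EGF and AREG chose the family by these values, so their points and bars are a description and no test.

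Calls followed the thresholds of the study's methods, a change over 1.5-fold together with an adjusted p under 0.05 by edgeR. EGF and AREG, which chose the family, are left out of the counts that follow. In A375 all 7 members passed the filter on low counts, and of the other 5 members 1 was called, NRG1, where 5.89% of the 18844 genes tested were called. In SK-MEL-28 6 of the 7 members passed the filter, and of the 4 tested 1 was called, again NRG1, where 4.99% of 18897 genes were called. With the adjusted p alone, NRG1, TGFA and HBEGF passed in A375, 3 of 5 (28.1% of all genes), and NRG1 in SK-MEL-28, 1 of 4 (19.0%). The nearest members on either side of the threshold were NRG1 in SK-MEL-28 at 1.51-fold and TGFA in A375 at 1.44-fold. These members had a median log2 fold change of 0.26 (A375) and 0.21 (SK-MEL-28), beside -0.0051 and 0.0053 for all genes tested. In A375 4 of them lay above 0 and 1 below, and in SK-MEL-28 2 above and 2 below, so the medians show no common direction in SK-MEL-28.

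A single fit of all 12 libraries tested whether A375 and SK-MEL-28 responded differently to rapamycin, and in it 5.62% of 20101 genes had an adjusted p under 0.05. TGFA was the only one of the 5 members tested to pass. Its log2 response was 0.47 higher in SK-MEL-28 than in A375 (standard error 0.058, edgeR adjusted p = 0.000180), a 1.39-fold difference. HBEGF had a difference of -0.41 (standard error 0.12, edgeR adjusted p = 0.0554), which passed under 4 of 20 alternatives. NRG1 had -0.55 (standard error 0.23, edgeR adjusted p = 0.186), BTC 0.43 (standard error 0.27, edgeR adjusted p = 0.418) and EREG 0.39 (standard error 0.84, edgeR adjusted p = 0.850). For these 3 a difference was not shown, and neither was a like response. The standard errors of BTC and EREG are wide beside their differences, and NRG1 did not pass after adjustment over all genes tested. As a description without a test, the difference was -0.40 for AREG, or -0.57 without SK-MEL-28 etoposide + rapamycin replicate 1, and -0.31 for EGF. This fit uses the same libraries as the comparisons within each line.

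The makeup of the ligand mRNA pool followed from these values and is given as a description, since AREG takes part in it. The 7 members summed to 262 ± 5.15 CPM per kilobase in A375 with etoposide and 236 ± 6.09 with rapamycin, and to 282 ± 4.67 and 274 ± 13.0 in SK-MEL-28. TGFA made up 83.4% ± 0.227 of the sum in A375 with etoposide and 64.1% ± 0.944 with rapamycin, while the AREG share was 11.6% ± 0.289 and 29.3% ± 0.876. In SK-MEL-28 the TGFA share was 92.9% ± 0.500 and 91.6% ± 0.364 and the AREG share 2.22% ± 0.144 and 3.92% ± 0.562. HBEGF held 3.76% to 5.34% in the 4 groups, and the other 4 members held the small remainder. In A375 the pool with rapamycin was therefore smaller in sum and richer in AREG, and in SK-MEL-28 TGFA kept over 91% of it in the mean of either group.

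**Figure D3:**
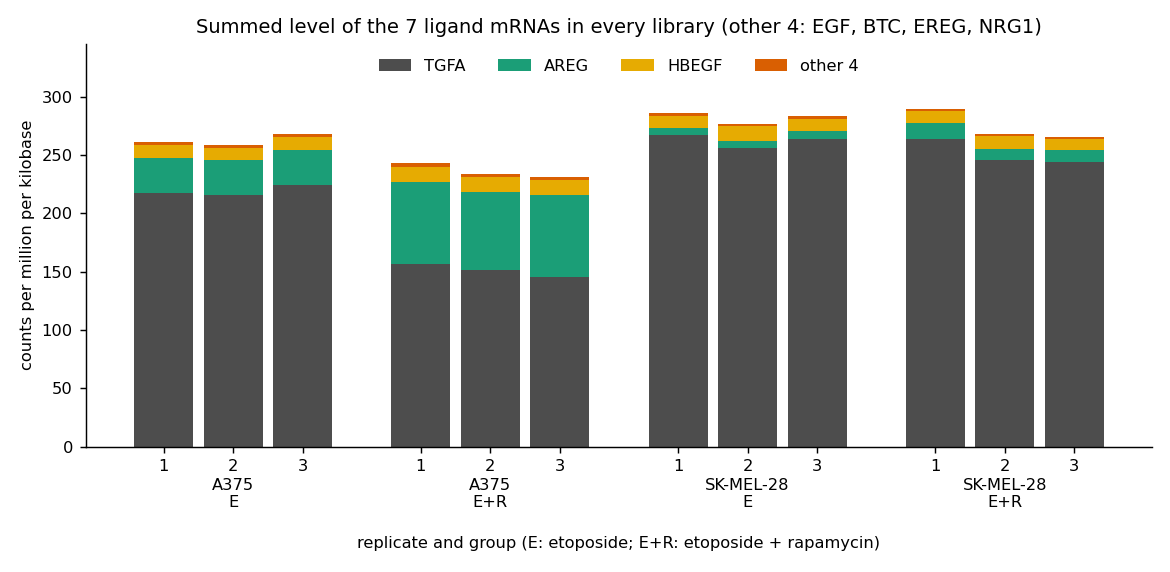
Summed level of the 7 ligand mRNAs in CPM per kilobase of transcript (vertical axis, from 0) in each of the 12 libraries, stacked by gene, with EGF, BTC, EREG and NRG1 drawn together. TGFA is the largest part of every bar, and the AREG part has a mean of 11.6% without and 29.3% with rapamycin in A375.

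The cell lines differed in their ligands, and these comparisons did not enter the choice of the family. Under etoposide, SK-MEL-28 had less AREG than A375 (log2 ratio -2.27, standard error 0.081, edgeR adjusted p = 4.04e-10), 4.84-fold lower. BTC was 3.10-fold lower in SK-MEL-28 (log2 ratio -1.63, standard error 0.20, edgeR adjusted p = 4.59e-05) and EGF 2.40-fold higher (log2 ratio 1.26, standard error 0.16, edgeR adjusted p = 6.45e-05). For these 3 genes the libraries of the 2 lines did not overlap. TGFA was higher in SK-MEL-28 by 0.26 on the log2 scale (standard error 0.043, edgeR adjusted p = 0.000446), under 1.5-fold, and HBEGF (0.12, edgeR adjusted p = 0.370) and NRG1 (-0.32, edgeR adjusted p = 0.211) did not pass. In all, 3 of the 6 members tested were called, where 13.0% of 19025 genes were, and 4 passed on the adjusted p alone, where 31.7% of all genes did.

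In the libraries with rapamycin, which the etoposide comparison does not use, the same 3 ligands differed in the same directions. AREG was 6.42-fold lower in SK-MEL-28 (log2 ratio -2.68, standard error 0.098, edgeR adjusted p = 1.71e-10), BTC 2.31-fold lower (-1.21, standard error 0.20, edgeR adjusted p = 0.000268) and EGF 1.93-fold higher (0.95, standard error 0.20, edgeR adjusted p = 0.00175). TGFA was here 1.66-fold higher in SK-MEL-28 (0.73, standard error 0.044, edgeR adjusted p = 2.36e-08) and NRG1 1.83-fold lower (-0.87, standard error 0.15, edgeR adjusted p = 0.000354). HBEGF was 1.23-fold lower (-0.30, standard error 0.073, edgeR adjusted p = 0.00558), under the threshold, and EREG did not pass (-1.30, standard error 0.56, edgeR adjusted p = 0.0785). In all, 5 of the 7 members were called, where 14.9% of 18817 genes were, and 6 passed on the adjusted p alone, where 40.4% did. The 5 calls were kept in each of the alternatives run, and so were the 3 calls under etoposide.

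**Figure D4:**
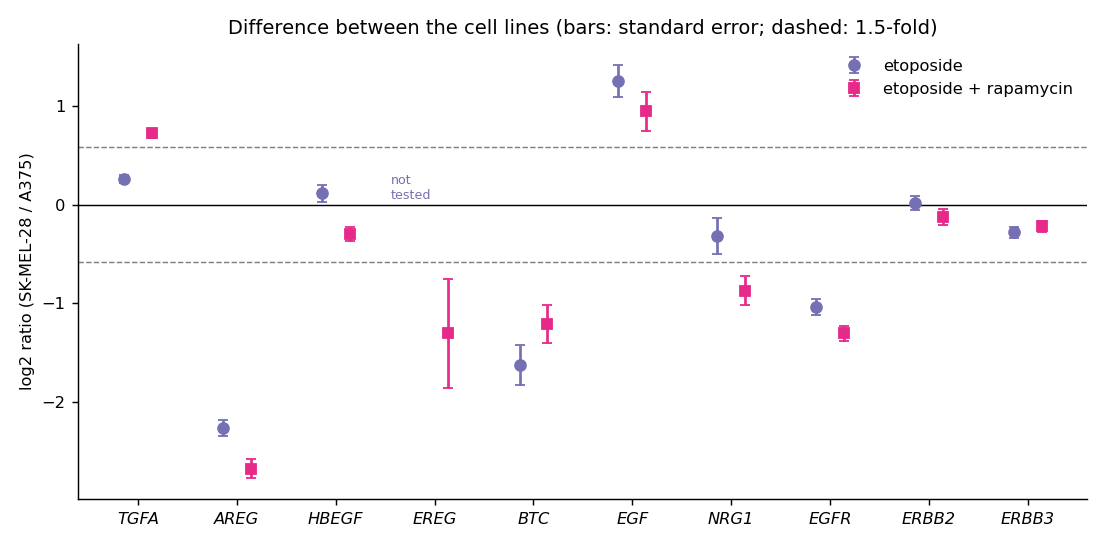
Log2 ratio of SK-MEL-28 over A375 (vertical axis) for the 7 ligands and 3 receptors in the etoposide libraries and in the etoposide + rapamycin libraries; bars are standard errors from edgeR and dashed lines mark 1.5-fold. AREG, BTC and EGFR lie below the lower line and EGF above the upper line under both treatments.

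Of the other 4 ligands of the family, NRG2, a ligand of ERBB3 and ERBB4, had 183 to 272 counts in every library, at 6.29 to 9.20 CPM, and passed in none of the 5 comparisons. Per kilobase its level came after TGFA, AREG and HBEGF in every group, with 1.94 ± 0.377 and 2.16 ± 0.173 CPM per kilobase in A375 without and with rapamycin and 2.01 ± 0.0588 and 2.12 ± 0.101 in SK-MEL-28. In A375 its libraries overlapped those of BTC, the next in order. NRG4 had 6 to 52 counts, NRG3 0 to 18 and EPGN 0 to 4, and NRG3 and EPGN did not pass the filter on low counts. EPGN, EREG, AREG and BTC, the neighbours on chromosome 4, thus ran from at most 4 counts to at least 222 (AREG) in the same libraries.

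Of the receptors, EGFR, the main receptor for AREG, EGF and TGFA, was lower in SK-MEL-28. EGFR had 40.3, 38.0 and 34.5 CPM in A375 with etoposide and 43.9, 43.2 and 43.5 CPM with rapamycin, and 18.9, 17.9 and 18.1 CPM and 19.1, 18.2 and 15.7 CPM in SK-MEL-28. All A375 libraries lay above all SK-MEL-28 libraries, and EGFR was 2.06-fold lower in SK-MEL-28 under etoposide (log2 ratio -1.04, standard error 0.078, edgeR adjusted p = 4.74e-07) and 2.47-fold lower with rapamycin (-1.31, standard error 0.077, edgeR adjusted p = 2.07e-08). With rapamycin 0 of the 4 receptors were called in A375 (5.89% of all genes) and 0 of the 3 tested in SK-MEL-28 (4.99%). On the adjusted p alone 3 of the 4 passed in A375, where 28.1% of all genes did. They were EGFR (log2 fold change 0.22, edgeR adjusted p = 0.0290), ERBB2 (0.20, edgeR adjusted p = 0.0466) and ERBB3 (0.14, edgeR adjusted p = 0.0377). In SK-MEL-28 0 of the 3 passed, where 19.0% of all genes did, and ERBB3 had 0.20 (edgeR adjusted p = 0.0535). The 3 values in A375 no longer passed when libraries were scaled by their totals (0.17, 0.16 and 0.10). ERBB3, the receptor of NRG1 and a gene of the melanocyte lineage, was the most abundant by counts, with 196 to 277 CPM, and ERBB4 had 3 to 18 counts. None of the receptors passed the test of a difference in response between the lines. Exons of EGFR overlap EGFR-AS1 and exons of ERBB2 overlap PGAP3 and MIEN1 on the opposite strand, and whether the counting used strand is not given in the sources used here.

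Of 12 genes that shed the ligands or control their shedding, 0 were called higher and 1 lower with rapamycin in A375. In SK-MEL-28 these counts were 0 and 2. The shares of all genes called were 5.89% and 4.99%. On the adjusted p alone 8 of the 12 passed in A375 (28.1% of all genes) and 7 in SK-MEL-28 (19.0%). ADAM19, a protease that can cut neuregulin, fell in both lines. The log2 fold changes were -0.78 for A375 (standard error 0.053, edgeR adjusted p = 1.04e-06) and -0.85 for SK-MEL-28 (standard error 0.071, edgeR adjusted p = 4.40e-06). Exons of ADAM19 overlap CYFIP2 on the opposite strand. The other gene in SK-MEL-28, named after its values were seen, was ADAM12, with -1.27 (standard error 0.099, edgeR adjusted p = 2.57e-06). The 2 most abundant genes of the list passed on the adjusted p alone in both lines but stayed under 1.5-fold. TIMP3, which inhibits ADAM proteases, had 0.31 in A375 (edgeR adjusted p = 8.11e-05) and 0.37 in SK-MEL-28 (edgeR adjusted p = 6.57e-05). RHBDF1, which escorts ADAM17 to the cell surface, had 0.40 (edgeR adjusted p = 0.000120) and 0.21 (edgeR adjusted p = 0.0192). The list had a median log2 fold change of 0.12 (A375) and -0.11 (SK-MEL-28).

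Of 12 genes that attenuate the receptors, 11 were tested, and 0 were called in A375 (5.89% of all genes), where 6 passed on the adjusted p alone (28.1%). In SK-MEL-28 1 was called higher and 1 lower (4.99% of all genes), and 5 passed on the adjusted p alone (19.0%). These were LRIG3 (log2 fold change 1.23, standard error 0.082, edgeR adjusted p = 7.47e-07), of a family of transmembrane proteins that includes a brake on EGFR, and the phosphatase PTPRJ (-0.60, standard error 0.052, edgeR adjusted p = 6.28e-06), both named after their values were seen. Without SK-MEL-28 etoposide + rapamycin replicate 2 PTPRJ had -0.56, under 1.5-fold, and 1 gene of the list was called. ERRFI1, an inhibitor of the EGFR kinase and the most abundant gene of the list, had 0.13 in A375 (edgeR adjusted p = 0.0423) and 0.39 in SK-MEL-28 (edgeR adjusted p = 0.000132). The phosphatase PTPN1 had -0.19 (edgeR adjusted p = 0.00608) and -0.27 (edgeR adjusted p = 0.00241). Both genes thus passed on the adjusted p alone, under 1.5-fold. The list had a median of -0.03 (A375) and -0.01 (SK-MEL-28). Of 10 receptor adaptors, 0 were called in either line and 4 passed on the adjusted p alone in each, beside the same shares of all genes. SHC1, the most abundant, had -0.22 in A375 (edgeR adjusted p = 0.00119) and -0.16 in SK-MEL-28 (edgeR adjusted p = 0.0316). GRB2 had -0.05 (edgeR adjusted p = 0.474) and -0.16 (edgeR adjusted p = 0.0308). The list median was -0.16 (A375) and -0.13 (SK-MEL-28).

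Of 18 genes induced by ERK, 1 was called higher and 1 lower in A375, and 1 higher and 0 lower in SK-MEL-28, where 5.89% and 4.99% of all genes were called. On the adjusted p alone 10 passed in A375 (28.1% of all genes) and 5 in SK-MEL-28 (19.0%). The 3 genes, named after their values were seen, were FOSL1, an AP-1 subunit, with 0.70 in A375 (standard error 0.046, edgeR adjusted p = 7.83e-07), SPRY1, a feedback inhibitor of RAS signalling, with -0.70 in A375 (standard error 0.11, edgeR adjusted p = 0.000682), and EGR1, an early response transcription factor, with 0.84 in SK-MEL-28 (standard error 0.094, edgeR adjusted p = 5.05e-05). FOSL1 had 0.57 in SK-MEL-28 and EGR1 0.45 in A375, both with an adjusted p under the threshold and a change under 1.5-fold. FOSL1 was also called in SK-MEL-28, for 2 genes of the list, without etoposide + rapamycin replicate 1 (0.63) and without etoposide replicate 2 (0.61) or replicate 3 (0.60). IER3, the most abundant of the list, had -0.01 and -0.11 and did not pass. The cyclin CCND1 had -0.13 in A375 (edgeR adjusted p = 0.0246) and 0.27 in SK-MEL-28 (edgeR adjusted p = 0.000387). The list had a median of 0.00194 (A375) and 0.02 (SK-MEL-28).

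The genes whose pattern over the 12 libraries was most like that of each member are given as a description. Likeness was Pearson's r of log2 CPM, and the points share their cell line and treatment, so that any gene with the same differences between groups scores high. For AREG they were the kinase gene MAPKAPK2 (r = 0.996), the cytokine gene CLCF1 (0.995) and the AP-1 subunit FOSB (0.994). For EGF they were the connexin gene GJA5 (0.987), SEC24C (0.984), of vesicle coats, and the corepressor TLE4 (0.984), and for TGFA the syntaxin STX3 (0.992), RABGAP1 (0.987) and the p53 target TP53INP1 (0.984). BTC was nearest to LINC00473 (0.987), FOXF1 (0.984) and the Notch target HES1 (0.981). NRG1 was nearest to FAM193B (0.973), FANCG (0.958) and EXO1 (0.955), of which FANCG and EXO1 encode DNA repair proteins. The likenesses of HBEGF rested on low counts, with RN7SKP70 (0.957) at 0 to 27 counts, IL23A (0.911) at 12 to 46 and AC010864.1 (0.890) at 15 to 34. For EREG, itself at 2 to 17 counts, they were GABPB1 (0.940), CTSH (0.936) and SLX1B (0.930).

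Among the members, AREG and NRG1 had r = 0.77 over the 12 libraries and 0.89 with the mean of each cell line removed. AREG and EGF had -0.89 and -0.84, and AREG and TGFA -0.92 and -0.83. The family was chosen on the rapamycin values of AREG and EGF, which moved in opposite directions in these libraries. Their negative correlation largely repeats that choice and is no further result, and the other correlations are given as a description. AREG and BTC had 0.93 over all libraries but 0.42 within lines, so that their likeness lay mostly in the difference between A375 and SK-MEL-28. NRG1 and TGFA had -0.86 on either scale. HBEGF had smaller correlations with the other members over the 12 libraries, from -0.61 (TGFA) to 0.50 (NRG1).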

How the data were processed

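RNA of 12 samples was sequenced from polyA-enriched libraries. The authors mapped reads to GRCh38 with HISAT2, estimated expression with StringTie and an Ensembl annotation, and deposited raw counts per gene and library, without normalization or pooling. How coverage became counts is not given in the sources used here. Rows that name no gene (5, with 0.00099% to 0.0053% of a library's counts) were left out, and 1892 rows that share a symbol were kept apart. Samples were grouped by the cell line and treatment in the labels.

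Counts were tested with edgeR 4.0.16 in R 4.3.3, by its quasi-likelihood functions glmQLFit and glmQLFTest after TMM scaling and filterByExpr (minimum count 10). The p-values were adjusted by the method of Benjamini and Hochberg over the whole table. Treatments were compared in a fit of each cell line, cell lines in a fit of each treatment, and the difference in response was fitted on 12 libraries. EGF and AREG were not tested between treatments. Calls needed over 1.5-fold and an adjusted p under 0.05, or the adjusted p alone for the difference. Standard errors are the size of the log2 fold change over the square root of F. Precision rests on the spread between 3 libraries at 28190672 to 32499659 counts, with a biological coefficient of variation of 0.0957 in each line. CPM used TMM factors of all 12 libraries, and likeness used log2 CPM with a prior count of 2. Lengths, positions and overlaps came from GENCODE release 44, and promoters from RefSeq. The fits were tested on simulated data.

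The members and lists were chosen with earlier results of these data known, as was the rule for named genes: the 7 members, the other 4 ligands, the 4 receptors, from each other list the genes called in both lines and the 2 with the highest level per kilobase, and the 3 genes most like each member. Genes outside it are named as chosen after their values were seen. Alternatives tried were DESeq2 1.42.0, edgeR with RLE size factors, scaling by library totals, a filter of 1 count in any library, a filter of 10 counts in each library, 1 fit of all libraries, rows of one symbol summed, the replicate number as a block, other use of the 1.5-fold threshold, and leaving out each library. The summed exon length was added after seeing the data.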

Additional observations from a re-analysis of the deposited data

Results flagged for a closer look

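The test of the difference itself was passed by 6 genes named here, of which ADAM12, LRIG3 and PTPRJ were named after their values were seen, whose rapamycin response was not the same in A375 as in SK-MEL-28, and values are the SK-MEL-28 minus the A375 log2 fold change. The ligand TGFA had a difference of 0.47 (edgeR adjusted p = 0.000180), from -0.53 in A375 and -0.06 in SK-MEL-28, and it passed in each leave-one-out fit. ERRFI1, the inhibitor of the EGFR kinase, had a difference of 0.26 (edgeR adjusted p = 0.0214), from 0.13 (A375) and 0.39 (SK-MEL-28). The call of ERRFI1 was lost without A375 etoposide + rapamycin replicate 3 (0.23, edgeR adjusted p = 0.0678), A375 etoposide replicate 3 (0.26, 0.0574), SK-MEL-28 etoposide + rapamycin replicates 2 (0.25, 0.0528) and 3 (0.24, 0.0594), and SK-MEL-28 etoposide replicates 2 (0.26, 0.0524) and 3 (0.24, 0.0651). CCND1, a cyclin, had a difference of 0.41 (edgeR adjusted p = 0.000137), with -0.13 in A375 and 0.27 in SK-MEL-28. ADAM12, of the shedding list, had a difference of -0.76 (edgeR adjusted p = 0.00309), from -0.50 (A375) and -1.27 (SK-MEL-28), and LRIG3 one of 0.90 (edgeR adjusted p = 3.43e-05), from 0.33 and 1.23. PTPRJ had a difference of -0.35 (edgeR adjusted p = 0.0151), from -0.24 and -0.60, which no longer passed without A375 etoposide + rapamycin replicate 1 (-0.32, edgeR adjusted p = 0.0505). Of all 20101 genes tested, 5.62% passed this test. By list, it was passed by 1 of the 5 ligands tested, 3 of 12 shedding genes, 3 of 11 attenuators and 3 of 18 ERK genes. It was passed by 0 of 10 adaptors, 0 of 4 receptors and 0 of the 2 other ligands tested. Of the markers tested, 2 of 7 melanocytic markers and 0 of 5 markers of other cell types passed. Not all genes of the lists that passed are named here.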

How the results depend on the processing

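Over the alternatives, 506 of 527 values of the ligands kept their direction and their side of the threshold (for the untested values of EGF and AREG, moved by less than the SD between replicates), 9 lost a call, 8 gained one, 2 changed sign and 2 untested values moved further. These were AREG in A375 with library totals (1.15) and its difference in response without SK-MEL-28 etoposide + rapamycin replicate 1 (-0.57). The untested log2 fold change of EGF in A375 ran from -0.97 to -0.63. Of the 5 members tested, the number called in A375 was 1, or 3 with no fold change threshold, and 1 to 1 on leaving out each library. In SK-MEL-28 it was 1 (NRG1), or 0 to 1 on leaving out each library, and 0 with library totals (log2 fold change 0.56), 0 with the filter of 1 count in any library (0.60) and 0 with the replicate block (0.58). For the difference in response, 1 of the 5 passed, against 2 with DESeq2, 2 with RLE, 2 with the filter of 10 counts in every library and 0 with 1.5-fold asked as well, and 1 to 2 on leaving out each library. HBEGF was the second with DESeq2 (adjusted p = 0.0125), RLE (edgeR adjusted p = 0.0468), the filter of 10 counts (0.0300) and without A375 etoposide replicate 1 (0.0438). The cause was not tested. Over all genes this count ran from 326 (1.5-fold asked as well) to 1792 (DESeq2) around 1130. Without the fold change threshold all genes called numbered 5295 in A375, 3582 in SK-MEL-28, and 6037 and 7597 between the lines. Between the lines 3 to 4 ligands were called under etoposide and 5 to 5 with rapamycin with each library left out.

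No shared effect of the replicate number was detected, with correlations of deviations between same-numbered libraries of -0.030 to 0.021. Whether same-numbered libraries were prepared as pairs is not given in the labels, and these values cannot decide it. With the replicate block, 1 of the 5 was called in A375, 0 in SK-MEL-28 and 1 for the difference, and of all 7 members 3 between the lines under etoposide and 5 with rapamycin. It moved the count over all genes for the difference to 620. The block ended the call of ERRFI1 for the difference (edgeR adjusted p = 0.0694) and gave one to NRG4 between the lines under etoposide (log2 ratio 1.12), and beside these and NRG1 it changed no other call of the ligands, receptors and genes named from the shedding, attenuator, adaptor and ERK lists.

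Signs changed only with a library left out. The log2 values in question were near 0, other than NRG4 with rapamycin in A375 (0.27) and, for the difference, EREG (0.39) and ERBB4 (-0.38). With rapamycin the ranges were -0.029 to 0.21 (BTC, A375), -0.15 to 0.89 (NRG4, A375), -0.036 to 0.021 (IER3, A375), -0.026 to 0.15 (ERBB2, SK-MEL-28) and -0.11 to 0.029 (EGFR, SK-MEL-28). For the difference they were -0.15 to 1.05 (EREG), -1.26 to 0.064 (ERBB4), -0.24 to 0.035 (NRG2), -0.014 to 0.11 (ERBB3) and -0.14 to 0.0063 (ADAM19). Between the lines they were -0.064 to 0.21 (NRG2) and -0.055 to 0.088 (ERBB2) under etoposide, and -0.085 to 0.032 (NRG2) and -0.11 to 0.035 (EGR1) with rapamycin. The share of TGFA in the ligand sum with the summed exon length, chosen after seeing the data, was 84.5% and 66.2% for A375, against 93.4% and 92.2% for SK-MEL-28. Counts of a few reads limit EREG, NRG3, NRG4, EPGN and ERBB4.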
